A study of Mus musculus with 36 samples.

Results

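The comparison described here asked what gemcitabine added to immune, stromal and tumour transcripts in pancreatic tumours of mice that already received TP-0903 and a PD1-blocking antibody. It set the 5 tumours with the treatment label TP-0903+Gemcitabine+anti-PD1, called the triplet arm below, against the 4 tumours labelled TP-0903+anti-PD1, called the doublet arm, 9 of the 36 tumours in the study. All 36 came from an orthotopic endpoint experiment in which a mouse pancreatic tumour cell line, KPfC BMF-A3, was placed in the pancreas of wild-type C57BL/6 mice. Treatment began on day 10 and every tumour was taken on day 35. Both arms received TP-0903 by mouth at 25 mg/kg daily and the antibody clone RMP14-1 into the peritoneum at 5 mg/kg, 2 times a week. The triplet arm also received gemcitabine into the peritoneum at 25 mg/kg, 3 times a week, and this was the labelled difference between the arms. RNA from tumour tissue was counted on a mouse cancer immunology panel of 750 endogenous and 20 housekeeping genes, in which coloured barcode probes are counted one by one without amplification. The tumours all grew from a single cell line, and the labels do not say whether each tumour came from its own mouse, so p-values measure the spread between these samples.

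Gemcitabine is a nucleoside analogue that stops DNA synthesis and kills dividing cells, and it is a standard chemotherapy for pancreatic cancer. Myeloid cells, among them neutrophils, turn over fast and can fall in number under such drugs. TP-0903 inhibits Axl, a receptor kinase of the TAM family (Tyro3, Axl and Mertk) found on tumour cells and macrophages, and PD1 is an inhibitory receptor on T cells. In whole tumour tissue, fewer cells of a type and less RNA per cell cannot be told apart.

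Depth overlapped between the arms. Total counts ran from 115973 to 341334 in the doublet arm and from 154776 to 332388 in the triplet arm. Total count, the geometric mean of the housekeeping genes, that of the positive controls, their ratio, the background threshold, the number of genes above it and the binding density each gave an exact permutation p between 0.540 and 0.984 (two-sided, 5 against 4 tumours, 7 measures, all 0.984 after adjustment, smallest p possible 0.0159). The lowest total belonged to doublet replicate 4, and doublet replicate 1 was the only one of the 9 lanes on another cartridge. The first digit of the title number was 7 in all 4 doublet tumours and in triplet replicates 1 and 2. It was 8 in triplet replicates 3, 4 and 5, and the labels do not say what it marks. Levels below are scaled counts, raw counts divided by the lane's housekeeping factor, and a fold is the triplet over the doublet arm on the log2 scale with its standard error. Of the 750 genes, 683 lay far enough above background to be tested, and 426 of these were above background in all 9 lanes. Tumour and stroma markers were present in every lane. Epcam, an epithelial adhesion molecule, ran from 763 to 3555 scaled counts and the collagen gene Col1a1 from 2644 to 9823 over the 9 tumours.

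No gene passed the test. edgeR's quasi-likelihood test called 0 of 683 genes at an adjusted p under 0.05 (0% called, smallest adjusted p = 0.577), while 16 genes, or 2.34% of those tested, had an unadjusted p under 0.05. DESeq2 called 1 gene, the mast cell chymase gene Cma1, with 19 unadjusted, and limma called 0 with 18 or 14 unadjusted at a pseudocount of 1 or 20. The folds were small: 576 genes had a log2 fold within 0.5 of 0, 21 were past 1, and 300 were positive against 383 negative, with a median of -0.04. The median standard error was 0.39, from a spread shared by all 36 libraries and not by these 9 alone. Without Vehicle replicate 3 and TP-0903 replicate 3, both outside this comparison, it was 0.32. The same test then gave 33 of 676 genes an unadjusted p under 0.05 and called 0. The intervals that follow are from the fit with all 36. For 326 genes (47.7%) the 95% interval of the fold lay within 1 log2 unit of 0, and for 619 (90.6%) within 2. For the rest the interval reached past 2 log2 units, so a difference of that size is not excluded.

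**Figure D1:**
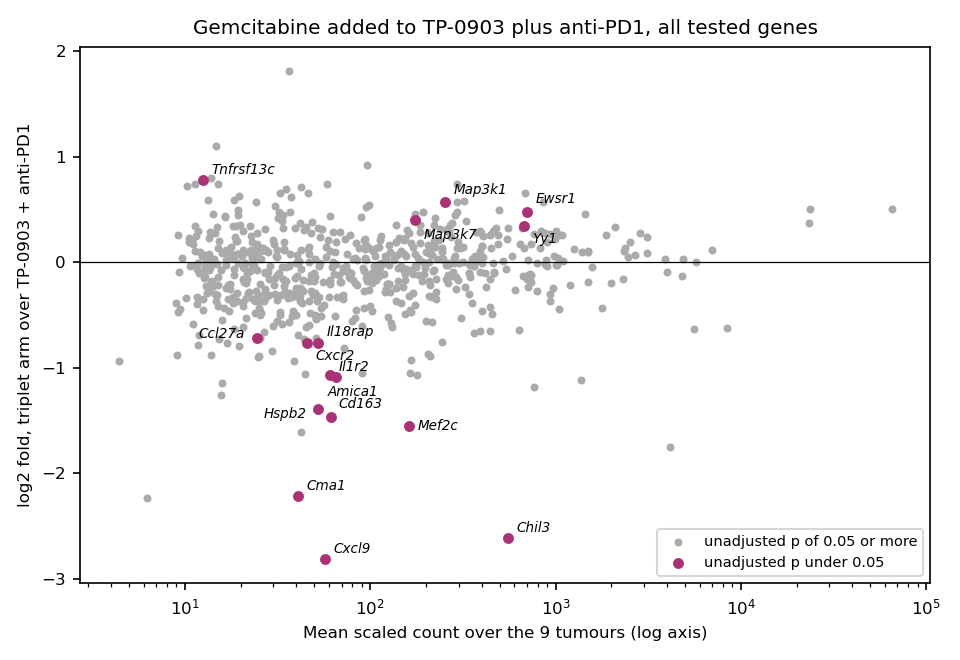
Log2 fold of the triplet over the doublet arm (vertical axis) against the mean scaled count over the 9 tumours (horizontal log axis) for the 683 tested genes, 1 point per gene. The 16 named genes with an unadjusted p under 0.05 include 5 above 0, all with folds under 1, and 11 below 0, of which Cxcl9, Chil3 and Cma1 lie lowest.

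Of the 16 genes with an unadjusted p under 0.05, 5 had a positive fold. Ewsr1, which encodes an RNA-binding protein, measured 649, 638, 459.7 and 568 scaled counts in doublet replicates 1 to 4 and 942, 832, 747, 802 and 708 in triplet replicates 1 to 5. All 5 triplet tumours lay above all 4 doublet tumours. The log2 fold was 0.48 ± 0.19 (unadjusted p = 0.0167, edgeR adjusted p = 0.998), and it ran from 0.38 to 0.54 when each tumour was left out. Map3k7 encodes TAK1, a kinase that relays cytokine and Toll-like receptor signals to NF-kB, and Map3k1 encodes a kinase upstream of JNK. Map3k7 measured 89.0, 167, 188 and 149 in the doublet arm and 179.9, 208, 199, 185 and 208 in the triplet arm, a log2 fold of 0.40 ± 0.16 (adjusted p = 0.998). The arms overlapped through doublet replicate 3, and without doublet replicate 1, the lowest, the fold was 0.22 ± 0.15. Map3k1 measured 223, 276, 129 and 168 against 303, 349.6, 293, 278 and 255, a log2 fold of 0.57 ± 0.27 (adjusted p = 0.998). Only doublet replicate 2 reached the triplet range.

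Yy1, a zinc finger transcription factor, had a log2 fold of 0.34 ± 0.16 and Tnfrsf13c, the B cell receptor for the survival factor BAFF, 0.78 ± 0.37 (both adjusted p = 0.998). Tnfrsf13c was above background in 0 of 4 doublet and 1 of 5 triplet tumours, so its fold is that of a gene near background. Among genes with a positive fold, the next by p included Tnfrsf9, Lag3, Mif, Map2k4, Cd79b and Klra4, with folds from 0.29 to 1.81 and adjusted p-values of 0.998. Mif, the cytokine macrophage migration inhibitory factor, measured 919, 1672, 1035 and 1123 in the doublet arm and between 1336 and 1871 in the triplet arm, a log2 fold of 0.46 ± 0.27. Tnfrsf9 and Lag3 encode an activating and an inhibitory receptor of T cells, and their folds were 0.53 ± 0.30 and 0.57 ± 0.33 at levels of 7.07 to 51.4.

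**Figure D2:**
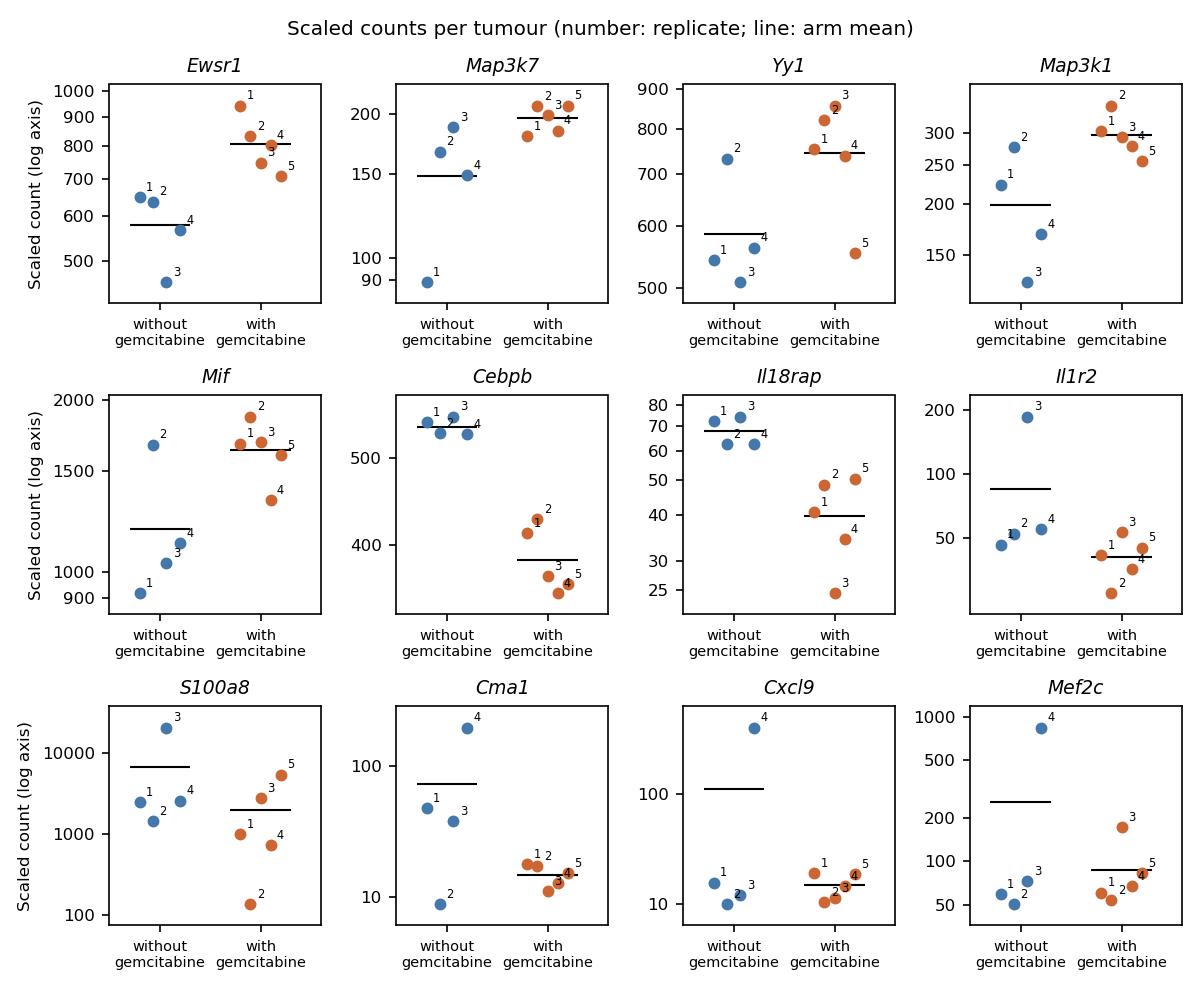
Scaled counts of 12 genes (vertical log axes) in the doublet arm (without gemcitabine) and the triplet arm (with gemcitabine), 1 point per tumour with its replicate number and a line at the arm mean. Ewsr1, Cebpb and Il18rap do not overlap between the arms, whereas the distance between the arm means of Cma1, Cxcl9 and Mef2c goes with doublet replicate 4 and that of S100a8 and Il1r2 with doublet replicate 3.

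The other 11 of the 16 genes had a negative fold, and in most of these 1 doublet tumour stood far above the rest. Cma1, a protease stored in mast cells, had the smallest p. It measured 48.1, 8.94, 38.4 and 197 in the doublet arm against 17.9, 17.3, 11.2, 12.9 and 15.4 in the triplet arm. Doublet replicate 2 was the lowest of all 9 tumours and replicate 4 the highest. Cma1 lay below background in doublet replicate 2 and in every triplet tumour but replicate 5, so its triplet level is one near background. The log2 fold was -2.21 ± 0.60 (edgeR adjusted p = 0.577) and -1.05 ± 0.56 without doublet replicate 4. DESeq2 gave Cma1 -2.20 ± 0.55 with an adjusted p of 0.0408, and edgeR without doublet replicate 2 gave -2.61 ± 0.56 with an adjusted p of 0.0385. The mast cell and eosinophil list does not hold Cma1. Among its 12 tested genes, 7 had negative folds and the median was -0.08. Fcer1a, the alpha chain of the high-affinity IgE receptor, and Il1rl1, the IL-33 receptor of mast cells, were also highest in doublet replicate 4, at 64.9 and 72.2. The list as a whole was not. Its summed level was 830, 592, 987 and 789 in doublet replicates 1 to 4 and was highest in triplet replicate 5, at 1350.

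Cxcl9, an interferon gamma induced chemokine that draws T cells, measured 15.5, 9.93, 11.9 and 402 in the doublet arm and 18.9, 10.4, 11.2, 14.3 and 18.5 in the triplet arm. Outside doublet replicate 4 the arms covered the same range. Cxcl9 lay below background in every tumour but doublet replicate 4 and triplet replicate 5. Its log2 fold was -2.81 ± 0.90 (adjusted p = 0.998) and turned to 0.28 ± 0.80 without that tumour. Mef2c, a transcription factor of muscle, endothelium and B cells, measured 59.4, 50.7, 72.9 and 844 against 60.6, 53.7, 172, 67.3 and 83.2. Its fold went from -1.55 ± 0.62 to 0.51 ± 0.50 when doublet replicate 4 was left out. Hspb2, a small heat shock protein of muscle, went from -1.39 ± 0.50 to -0.64 ± 0.49 in the same way. The macrophage scavenger receptor Cd163 measured 62.2, 20.9, 123 and 173 against 28.8, 13.8, 55.9, 24.3 and 47.2. Its log2 fold was -1.47 ± 0.66 (adjusted p = 0.998), the arms overlapped, and without doublet replicates 3 and 4 it was -0.28 ± 0.80.

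Il18rap, the accessory chain of the IL-18 receptor on T and NK cells, did not depend on 1 tumour. It measured 72.1, 62.6, 74.2 and 62.5 in the doublet arm and 40.7, 48.5, 24.6, 34.4 and 50.3 in the triplet arm, with no overlap. The log2 fold was -0.76 ± 0.31 (unadjusted p = 0.0204, adjusted p = 0.998) and ran from -0.86 to -0.64 over the tumours left out in turn. Ccl27a, a chemokine for skin-homing T cells, also did not overlap, at 28.3, 29.8, 38.4 and 28.9 against 22.9, 22.5, 11.2, 15.8 and 21.6. Its log2 fold was -0.72 ± 0.32 (adjusted p = 0.998), and it was above background in 3 of the 5 triplet tumours.

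Mature neutrophil genes had the most negative median of any list, and doublet replicate 3 carried most of it. S100a8, an alarmin abundant in neutrophils, measured 2497, 1452, 20616 and 2598 scaled counts in the doublet arm and 1007, 138, 2784, 727 and 5416 in the triplet arm. The log2 fold was -1.75 ± 0.87 (adjusted p = 0.998) and -0.12 ± 0.86 without doublet replicate 3. The decoy IL-1 receptor Il1r2 measured 46.6, 52.6, 187 and 55.3 against 41.7, 27.7, 53.7, 35.8 and 45.2, a log2 fold of -1.07 ± 0.35 (unadjusted p = 0.00505, adjusted p = 0.998). Without doublet replicate 3 it was -0.34 ± 0.32. The folds of 3 further genes among the 16 were also smaller without that tumour. Chil3, a chitinase-like protein of myeloid cells, went from -2.61 ± 1.13 to -0.20 ± 1.10, the leukocyte adhesion gene Amica1 from -1.09 ± 0.48 to -0.26 ± 0.47, and the chemokine receptor gene Cxcr2 from -0.77 ± 0.37 to -0.44 ± 0.40.

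Of the 13 tested members of the mature neutrophil list 12 had a negative fold, with a median of -0.53 beside -0.04 over all genes and 0 called. The median ran from -0.79 to -0.12 over the tumours left out in turn, the value nearest 0 coming without doublet replicate 3, and was -0.00 without doublet replicates 3 and 4. The summed level of the 14 members on the panel was 25369 in doublet replicate 3 and between 2703 and 4745 in the other doublet tumours, against 1147 to 7895 in the triplet arm. No panel gene was at 0 in any of the 9 tumours. The neutrophil primary granule genes Mpo, Elane and Ctsg, made by immature neutrophils, had 3 of 3 positive folds with a median of 0.28. The median was -0.91, with 0 of 3 positive, without triplet replicate 5 and 1.83 without doublet replicate 3. Their sum was 1354 in doublet replicate 3, 839 in triplet replicate 3 and 1915 in triplet replicate 5, and between 81.3 and 194 in the other 6 tumours. Neutrophil chemokines, the ligands of Cxcr2 and their kin, had 2 of 6 positive folds and a median of -0.20. Cxcl1 measured 32.2 ± 6.93 (SD, n = 4) against 25.6 ± 12.5 (n = 5), a log2 fold of -0.31 ± 0.82 (adjusted p = 0.998).

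**Figure D3:**
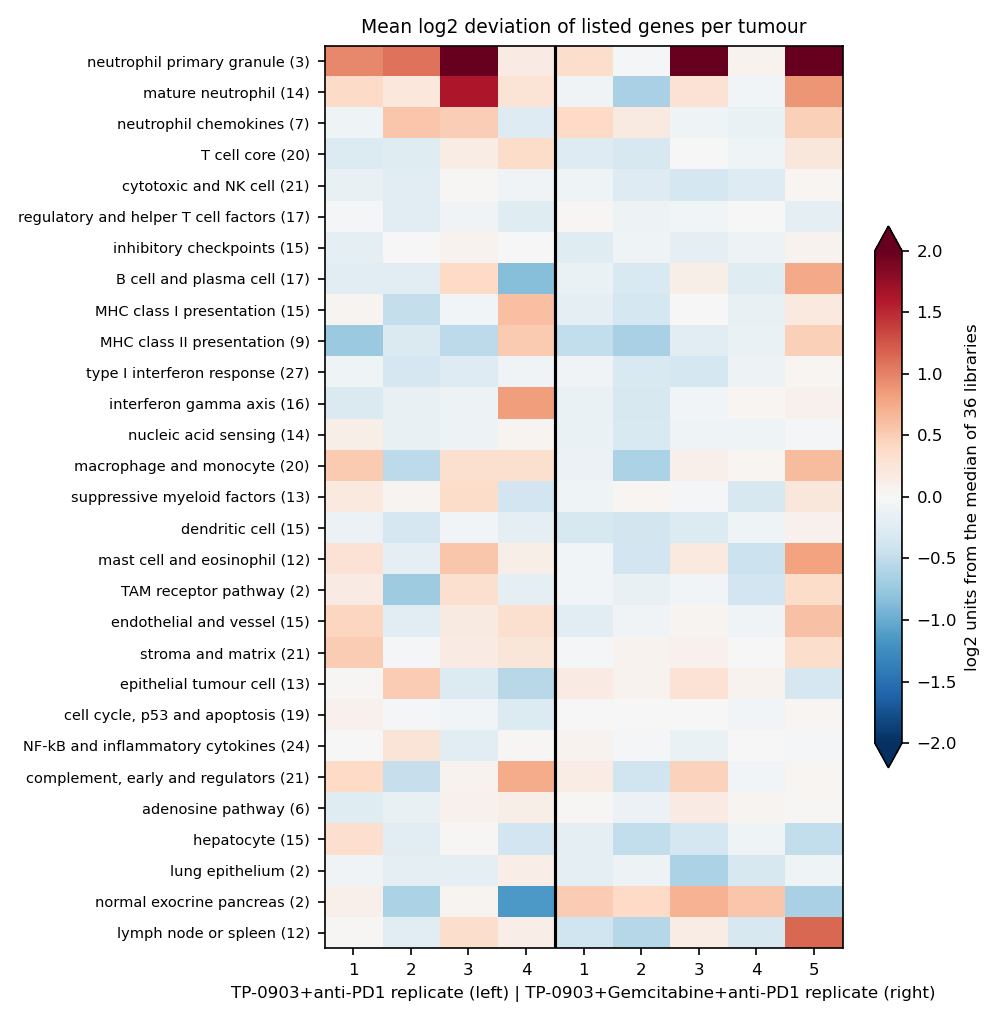
Mean deviation of the genes of each list (rows, with the number on the panel) from their median over the 36 tumours, in log2 units by colour, for the 4 doublet tumours (left) and the 5 triplet tumours (right). Doublet replicate 3 stands out for mature neutrophil genes. Primary granule genes of neutrophils are high in triplet replicate 5, doublet replicate 3 and triplet replicate 3. Doublet replicate 4 stands out for interferon gamma and MHC class I genes, and triplet replicate 5 also for B cell and lymph node genes.

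T cell transcripts were low in both arms. The CD8 co-receptor gene Cd8a, the regulatory T cell factor Foxp3 and the cytotoxic granule gene Gzmb were above background in at most 1 tumour of either arm and were not tested. Of the T cell core list 12 of 15 tested members had a negative fold, with a median of -0.18 and 0 called. The median ran from -0.27 to -0.02 over the tumours left out in turn, the value nearest 0 coming without doublet replicate 3. It was 0.15 without doublet replicates 3 and 4 together. When either of these 2 tumours alone was left out, 7 of the 15 folds were positive. The member with the smallest p was Cd3g, a chain of the T cell receptor complex, at 14.1, 15.9, 21.2 and 24.1 against 6.96, 8.65, 8.94, 5.73 and 18.5, a log2 fold of -0.88 ± 0.46 (adjusted p = 0.998). It was above background in 3 doublet tumours and 1 triplet tumour, and the arms overlapped through triplet replicate 5. Cytotoxic and NK cell genes had 7 of 14 positive folds and a median of 0.01, regulatory and helper T cell factors 7 of 12 and 0.04, and inhibitory checkpoints 4 of 15 and -0.11. Cd274, which encodes the PD1 ligand PD-L1, measured 75.4 ± 28.0 (SD, n = 4) against 73.5 ± 12.7 (n = 5), with a 95% interval of the log2 fold from -0.70 to 0.62. Pdcd1 itself and Cd4 were near background, with log2 folds of -0.33 ± 0.41 and -0.06 ± 0.45, and so was Ifng, at 0.01 ± 0.44 (all adjusted p = 0.998). The antibody and TP-0903 act on protein and gemcitabine on DNA synthesis, so no transcript here checks the treatment labels.

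Interferon gamma and antigen presentation genes were highest in doublet replicate 4. The summed level of the MHC class I list was 4868 in doublet replicate 4 and between 1812 and 2384 in the other doublet tumours, against 1902 to 2659 in the triplet arm. The list had 5 of 15 positive folds and a median of -0.33, which was 0.14 without doublet replicate 4. H2-K1, a classical class I heavy chain, measured 324, 262, 246 and 791.3 against 287, 211, 402, 259 and 392, a log2 fold of -0.38 ± 0.61 (adjusted p = 0.998). MHC class II genes, which present antigen to CD4 T cells, had 4 of 8 positive folds and a median of 0.00, which ran from -0.30 to 0.70 over the tumours left out. The interferon gamma axis had 7 of 15 positive folds and a median of -0.09, and the type I interferon response 13 of 22 and 0.03. Cxcl10, a chemokine of the same family as Cxcl9 and named here after its values were seen, measured 18.4, 19.9, 19.9 and 156 in the doublet arm and 19.0 to 31.8 in the triplet arm. Nucleic acid sensors had 2 of 14 positive folds, but the median was only -0.10 and no member was called or had an unadjusted p under 0.05.

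In 9 genes the arms did not overlap. All 5 triplet tumours lay above all 4 doublet tumours for 4 genes, or 0.586% of those tested, and below them for 5 genes, or 0.732%. With 5 against 4 tumours, a gene without any difference separates fully in either direction with an exact permutation probability of 0.0159. The 2 shares together stay below this. None of the 9 passed the test. The 4 above were Ewsr1, Tgfbr1, Ets1 and Litaf, and the 5 below Il18rap, Ccl27a, Cebpb, Tgfb2 and Tlr3, of which Ets1 and Litaf were named after their values were seen. Of the 9, doublet tumours lay closest together in Cebpb, a transcription factor of myeloid differentiation and inflammation, at 548, 533, 556 and 532 in the doublet arm and 412, 427, 369, 354 and 361 in the triplet arm. Its log2 fold of -0.50 ± 0.34 (adjusted p = 0.998) carries the larger spread of this gene over the whole study, where it ran from 292 to 1924. Tgfb2 and Tgfbr1 encode a ligand and a receptor of TGF-beta signalling, and no pattern of that pathway was tested. The ligand gene Tgfb2 measured 67.8, 61.6, 67.6 and 62.5 against 37.8, 38.1, 38.0, 57.3 and 55.5, a log2 fold of -0.51 ± 0.36. The type I receptor gene Tgfbr1 measured 387, 333, 318 and 378 against 442, 443, 445, 418 and 402, a log2 fold of 0.28 ± 0.20. Tlr3, a sensor of double-stranded RNA, ran from 43.3 to 52.3 in the doublet arm and from 26.8 to 41.7 in the triplet arm, a log2 fold of -0.37 ± 0.22 (all adjusted p = 0.998). With scaling to the positive controls only, Ewsr1 and Cebpb were the 2 of these 9 whose arms still did not overlap. With TMM scaling Ets1, Ccl27a, Cebpb, Il18rap and Tgfb2 did not overlap.

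Macrophage, dendritic and stromal genes showed no called member and medians near that of all genes. Macrophage and monocyte genes had 6 of 20 positive folds and a median of -0.13. The macrophage marker Cd68 measured 260 ± 51.1 (SD, n = 4) against 256 ± 91.9 (n = 5), a 95% interval of the log2 fold from -0.61 to 0.56, and the mannose receptor gene Mrc1 473 ± 226 against 342 ± 112, a log2 fold of -0.47 ± 0.46 (adjusted p = 0.998). Suppressive myeloid factors had 7 of 12 positive folds (median 0.04), dendritic cell genes 10 of 15 (0.07), and the adenosine pathway 3 of 6 (0.08). Arg1, which degrades arginine, had a log2 fold of 0.02 ± 0.77, and Nt5e, which makes adenosine, 0.19 ± 0.32 (both adjusted p = 0.998). Vegfa, the main angiogenic growth factor, measured 372, 1120.4, 261 and 310.3 against 960.0, 916, 1042, 611 and 551, a log2 fold of 0.66 ± 0.44 (adjusted p = 0.998), with doublet replicate 2 as high as any triplet tumour. Endothelial and vessel genes had 4 of 14 positive folds (median -0.12), stroma and matrix genes 8 of 21 (-0.10), and early complement genes and regulators 8 of 21 (-0.06). Col1a1 measured 9823, 4051, 7371 and 6674 against 2644, 3148, 4492, 3583 and 8627, a log2 fold of -0.63 ± 0.68 (adjusted p = 0.998), and triplet replicate 5 lay inside the doublet range. The complement gene C3 went from a log2 fold of -1.11 ± 0.80 to -0.21 ± 0.84 without doublet replicate 4, where it reached 4692.

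The drug targets and the tumour cell genes gave no called gene either. Axl measured 636, 387, 717 and 669 against 612, 709.6, 570.2, 599 and 909, a log2 fold of 0.18 ± 0.29, and Mertk had -0.14 ± 0.39 (both adjusted p = 0.998). These were the 2 TAM pathway genes on the panel, with a median of 0.02. Epithelial tumour cell genes had 9 of 13 positive folds and a median of 0.10, with Cdh1, the epithelial cadherin, at 2246 ± 1109 (SD, n = 4) against 2413 ± 654 (n = 5). Cell cycle, p53 and apoptosis genes, the group nearest to the action of a nucleoside analogue, had 10 of 18 positive folds and a median of 0.04. Cdkn1a, the p53 target that encodes the cell cycle inhibitor p21, measured 202, 333, 224 and 164 against 306, 284, 297, 215 and 317. Its log2 fold was 0.30 ± 0.39 (adjusted p = 0.998), with a 95% interval from -0.50 to 1.09. NF-kB and inflammatory cytokine genes had 8 of 24 positive folds and a median of -0.10, among them Tnf at -0.28 ± 0.30 (adjusted p = 0.998).

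B cell genes went with triplet replicate 5. The list had 9 of 16 positive folds and a median of 0.25, which was -0.01 without that tumour. Cd79b, a chain of the B cell receptor, measured 5.65, 17.9, 33.1 and 2.41 against 19.9, 20.8, 58.1, 21.5 and 149.9, and its log2 fold went from 1.81 ± 1.09 (adjusted p = 0.998) to 0.92 ± 1.11. The lymph node or spleen list, with 12 of its 14 genes on the panel, summed to 1212 in triplet replicate 5 and to between 285 and 645 in the other 8 tumours. Its 11 tested members had 7 positive folds and a median of 0.32, which was -0.12 without triplet replicate 5. The same tumour had the lowest Epcam of the 9. The part of lymphoid tissue in these values was not tested. Markers of other organs covered overlapping ranges in both arms. The hepatocyte list had 5 of 15 positive folds and a median of -0.27, with sums of 6037 to 9197 against 6165 to 10141. The lung list had 1 of 2 positive folds (median -0.26, sums 25.8 to 55.3 against 22.4 to 28.8). The exocrine pancreas list, of the organ that held the tumours, had 2 of 2 (0.53, sums 8774 to 34890 against 9461 to 32425). Its sum was nearly all Dmbt1, at 9434 of 9461 in triplet replicate 5. The sum follows that gene and is no measure of normal exocrine tissue.

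**Figure D4:**
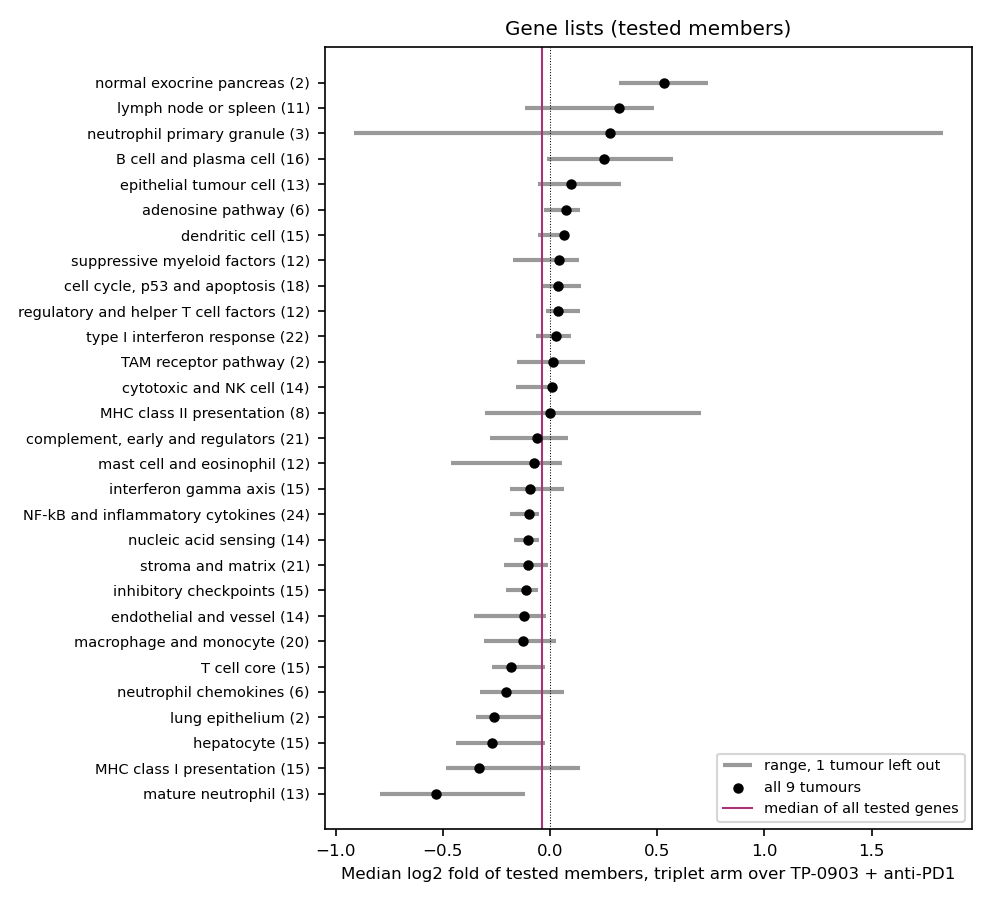
Median log2 fold of the tested members of each of the 29 lists (points, with the number tested), with the range when each of the 9 tumours was left out in turn (bars) and the median of all tested genes (coloured line at -0.04). The bars of the B cell, lymph node, neutrophil primary granule and both MHC lists cross 0, and that of the mature neutrophil list stays below 0 but reaches -0.12.

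Doublet tumours differed from each other at least as much as from triplet tumours. The root mean square log2 difference over the tested genes had a median of 0.66 between pairs of doublet tumours, 0.52 between pairs of triplet tumours and 0.60 between the arms. Genes at least 4-fold above the other tumours of their own arm numbered 10 in doublet replicate 4, 8 in doublet replicate 3 and 3 in triplet replicate 5, and 0 in the other 6 tumours. Those of doublet replicate 4 were Cxcl9, Mef2c, Cfd, Cxcl10, Gbp5, Ccl8, Ccl5, H2-Aa, Cma1 and Rora, which include chemokines and interferon-induced genes. Those of doublet replicate 3 were Chil3, S100a8, Camp, Elane, Mpo, Ctsg, Itga2b and Prg2, mostly granule genes of myeloid cells. Those of triplet replicate 5 were the macrophage receptor gene Marco, the eosinophil chemokine gene Ccl24 and the B cell gene Ms4a1.

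Gemcitabine was also added to vehicle, to TP-0903 and to the antibody in other arms of the study, and no gene passed the test of a difference between its fold on the doublet background and its fold on those. edgeR's test of the difference called 0 of 683 genes (0%) against each of the 3, with 25, 50 and 23 genes at an unadjusted p under 0.05 and smallest adjusted p-values of 0.994, 0.183 and 0.975. The same test without Vehicle replicate 3 and TP-0903 replicate 3 also called 0, of 676 genes. It gave 32, 50 and 44 genes an unadjusted p under 0.05, with smallest adjusted p-values of 0.585, 0.355 and 0.352. S100a8 had a log2 fold of -1.75 ± 0.87 on the doublet background and of 1.22 ± 0.82 on vehicle, 1.03 ± 0.88 on TP-0903 and 1.55 ± 0.93 on the antibody. The differences had adjusted p-values of 0.994, 0.585 and 0.975. Ewsr1, at 0.48 ± 0.19 here, had -0.19 ± 0.18, 0.07 ± 0.19 and -0.10 ± 0.20 on the other 3, and Il1r2, at -1.07 ± 0.35, had 0.17 ± 0.33, -0.01 ± 0.35 and 0.09 ± 0.37. With doublet replicate 3 left out, the folds of S100a8 and Il1r2 on the doublet background were -0.12 ± 0.86 and -0.34 ± 0.32. Cd163, at -1.47 ± 0.66 here, had -1.48 ± 0.66, -0.41 ± 0.64 and -1.51 ± 0.69 on the other 3, and without Vehicle replicate 3 and TP-0903 replicate 3 its fold on TP-0903 was 0.046 ± 0.68. Cebpb, at -0.50 ± 0.34 here, had -0.38 ± 0.33, -1.14 ± 0.34 and -0.29 ± 0.36, and without the same libraries -0.065 ± 0.17 on vehicle and -0.23 ± 0.18 on TP-0903. On their own, gemcitabine's effects were 0 called genes on vehicle, 20 on TP-0903 and 0 on the antibody. Without Vehicle replicate 3 and TP-0903 replicate 3 the counts were 0, 0 and 1.

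**Figure D5:**
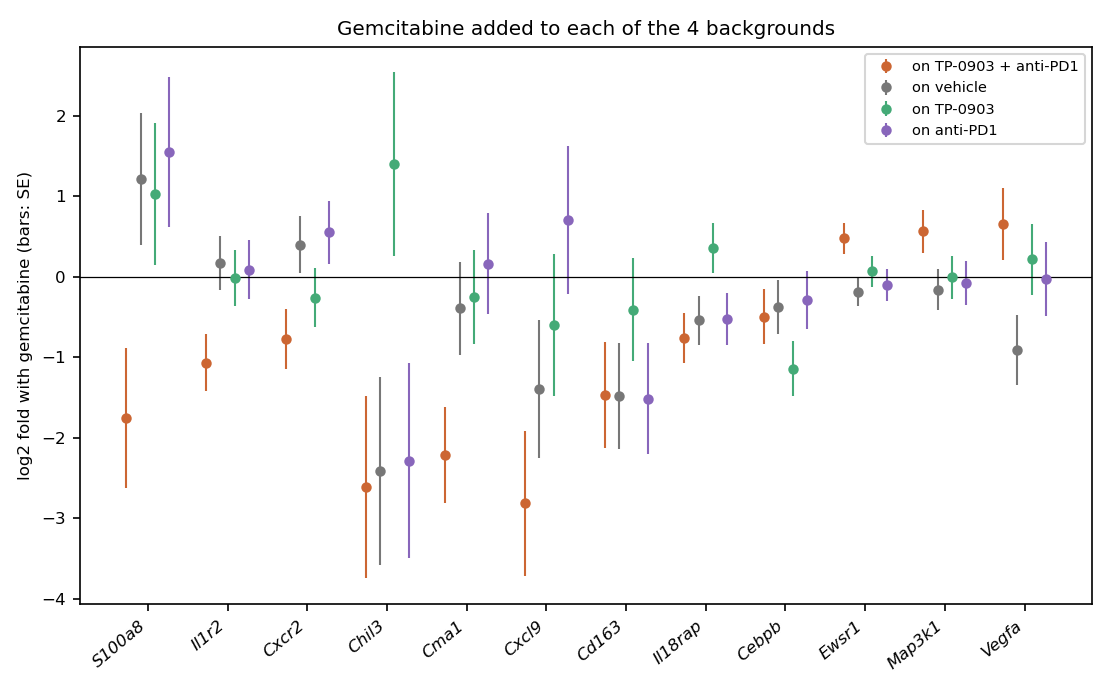
Log2 fold with gemcitabine (vertical axis, points with standard error bars) of 12 genes on 4 backgrounds, doublet, vehicle, TP-0903 and anti-PD1, marked by colour. S100a8 lies below 0 on the doublet background and above 0 on the other 3, the Cd163 fold on TP-0903 is the nearest to 0 of its 4 and is 0.046 without Vehicle replicate 3 and TP-0903 replicate 3, and no difference between backgrounds passed the test. The S100a8 fold on the doublet background is -0.12 ± 0.86 without doublet replicate 3.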

How the data were processed

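RNA from tumour tissue was counted on an nCounter cancer immunology panel for mouse. The authors deposited whole-number counts per gene and lane. The series' design text states normalization to positive controls and housekeeping genes, but 27720 of 27720 deposited values equal the raw lane report, so the counts are raw. The lane report holds other values too, namely lane attributes such as cartridge and binding density, per the file headers. Groups came from the treatment labels. Replicate numbers follow accession order and pair nothing.

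Background in a lane was the mean of its negative controls plus 2 SD, and a gene was tested if it exceeded this in 4 or more of 36 lanes. Library sizes followed the 20 housekeeping genes through their geometric mean. Raw counts of all 8 arms (36 libraries) entered 1 edgeR quasi-likelihood fit with robust dispersion (edgeR 4.0.16, limma 3.58.1, R 4.3.3), with Benjamini-Hochberg adjustment over 683 genes and a threshold of 0.05. The common biological coefficient of variation was 0.477. The fit was also run on simulated counts with a smaller spread than these data and with larger folds than most seen here. Those counts held no outlying tumours, so the run does not show how the fit behaves on such data. Library measures were compared with exact permutation tests, and no p is given for list levels, although 1 had been planned. Alternatives were DESeq2 1.42.0, limma on log2 values with pseudocounts of 1 and 20, other scalings and filters, background subtraction, a cartridge block, a title digit block, a fit to the 2 arms, and tumours left out.

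Genes named were the 12 higher and 12 lower with the smallest p, 25 always named, and the 2 smallest p-values of each of the 29 lists described above. Some genes that the rule takes are not reported here. Genes in which 1 tumour stood apart and genes whose arms did not overlap were added after their values were seen. The comparison and the lists were chosen with earlier results of these data known. Symbols were kept as deposited, and RefSeq held 746 of the 770 probe accessions.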

Additional observations from a re-analysis of the deposited data

Results flagged for a closer look

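In the arms of 4 and 5 tumours, 12 of 208 pairs of a gene and an arm (5.77%) had a tumour farther from the rest than Dixon's test allows at 95%, where chance flags about 1 in 20. Cxcl10, Ms4a1, Marco and Ccl24 were named because a tumour stood apart, so their 4 entries are not independent of the choice. In doublet replicate 4, Cxcl9 was 402 scaled counts (the rest of the arm 9.93 to 15.5), Mef2c 844 (50.7 to 72.9) and Cxcl10 156 (18.4 to 19.9). In doublet replicate 3, Il1r2 was 187 (46.6 to 55.3). In triplet replicate 5, Ms4a1 was 205 (28.8 to 49.2), Marco 90.4 (8.59 to 13.9) and Ccl24 127 (15.8 to 25.8), all above the rest, while Epcam was 763 (1777 to 2325) and Dmbt1, a secreted mucosal protein also made by pancreas, 9434 (27092 to 32382), both below it. The remaining 3 were single genes in different triplet tumours: Cdkn1a at 215 in replicate 4 (284 to 317), Cxcl2, a neutrophil chemokine, at 46.7 in replicate 1 (29.1 to 32.9), and Tlr3 at 26.8 in replicate 3 (37.0 to 41.7).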

How the results depend on the processing

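The count of called genes was 0 under 22 of 24 alternatives, with 4 to 34 genes at an unadjusted p under 0.05. It was 1 with DESeq2 and 1 without doublet replicate 2, both times Cma1 with a negative fold, and it ran from 0 to 1 over the tumours left out in turn. The counts for the differences from the other 3 backgrounds were 0 under all 22 alternatives run, and a fit to the 2 arms or to lanes of a shared cartridge cannot give them. No list member was called under the 13 alternatives run on the lists. With the cartridge as a block 0 genes were called, and within the cartridge that held all 5 triplet tumours and 3 doublet tumours also 0. No paired analysis was possible because the labels give the tumours no shared replicate numbers.

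Of 92 genes, 65 kept the sign of their log2 fold under every alternative and 27 did not. None of the 27 was called with either sign. Genes whose sign turned when single tumours were left out ranged, over the tumours left out, from -3.21 to 0.28 for Cxcl9, -1.94 to 0.51 for Mef2c, -0.32 to 0.058 for Mertk, -0.23 to 0.17 for Cd274, -0.27 to 0.12 for Cd4, -0.22 to 0.22 for Ifng, -0.25 to 0.10 for Cd68, -0.24 to 0.46 for Arg1 and -0.50 to 2.13 for Mpo. The ranges were -0.56 to 0.16 for H2-K1, -0.28 to 0.89 for H2-Ab1, -0.41 to 0.16 for Epcam, -0.11 to 0.47 for Cdh1, -0.16 to 0.034 for Vim, -0.91 to 1.83 for Elane, -0.086 to 0.86 for H2-DMb2, -0.89 to 0.015 for Cxcl15 and -0.12 to 0.31 for Lamp3.

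Without doublet replicates 3 and 4 together, a choice made after seeing the data, the turned folds were 0.25 for Cxcl9, 0.66 for Mef2c, 0.029 for S100a8, 0.036 for Pdcd1, 0.38 for Cd4, 0.040 for Cd68, 0.11 for Mrc1, -0.45 for Arg1, 0.084 for H2-K1, -0.34 for Cdh1, 0.044 for Vim, -0.19 for Nt5e, 0.19 for Fcer1a, 0.11 for Cxcl15, -0.20 for Lamp3 and -0.15 for Dmbt1. Without triplet replicate 5 as well, they were 0.16 for Cxcl9, 0.67 for Mef2c, 0.24 for Cd4, -0.63 for Arg1, -0.20 for Cdh1, -0.10 for Nt5e, 0.010 for Cxcl11, 0.077 for Fcer1a, 0.22 for Cxcl15 and -0.43 for Lamp3. The first digit of the title number as a block gave -0.0042 for Axl, 0.078 for Cd4, -0.12 for Ifng, -0.35 for Arg1, 0.23 for H2-K1, -0.14 for Elane, 0.0011 for Angpt1 and 1.06 for Cxcl15. limma gave 0.027 for Cd274, -0.0082 for Ifng and -0.041 for Elane with a pseudocount of 1, and 0.0093 for Cd274 with 20. Scaling to the positive controls gave 0.021 for Cd4 and 0.082 for Cd68. The cartridge block gave -0.058 for Ifng, 0.072 for Cd68 and -0.19 for H2-Ab1, and lanes of the shared cartridge -0.062, 0.074 and -0.19. The cause of these turns was not tested. Depth limits genes near background, since 13 of the 683 tested genes were above it in none of the 9 lanes.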

Other observations

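Cfd, the complement protease adipsin that fat cells secrete in quantity, split both arms, and it was named after its values were seen. It measured 53.7, 11.9, 94.1 and 959.7 scaled counts in doublet replicates 1 to 4 and 787, 20.8, 695, 14.3 and 9.24 in triplet replicates 1 to 5. Its log2 fold was 0.14 ± 1.46 (edgeR adjusted p = 0.998).

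Dmbt1 was among the most abundant transcripts, at 22875, 34883, 13784 and 8760 in the doublet arm and 28775, 32134, 27092, 32382 and 9434 in the triplet arm, with a log2 fold of 0.37 ± 0.92 (adjusted p = 0.998). Its 2 lowest tumours, doublet replicate 4 and triplet replicate 5, also had the 2 lowest Epcam levels, 1102 and 763.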
